A study of Mus musculus with 16 samples.

Results

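The 9 genes described here are markers of the thick ascending limb, the stretch of the kidney tubule that takes up salt without water: Umod, Slc12a1, Egf, Cldn10, Cldn16, Cldn19, Kcnj1, Ppp1r1a and Ptger3. They were taken by symbol from the count table, which lists 40879 gene symbols, and all 9 were found and passed the filter on low counts. RNA came from kidneys of male wild-type C57BL/6 mice, in 16 libraries made with QuantSeq, which counts the 3' end of each transcript. The 5 Young libraries came from untreated mice of 3 months and the 5 Old libraries from untreated, naturally aged mice. Aged mice of the Old+YM group (3 libraries) received the herbal formula Yukmijihwang-tang, and those of the Old+PM group (3 libraries) received Palmijihwang-tang. Either was given orally at 100 mg/kg a day, 5 days of each week, from 19 to 24 months of age. A passage of the design text names YM where the PM dose stands, and the group names were followed. For Old, no age at sampling is stated in the sources used here. The sources do not state that each library is its own mouse, so the tests measure the spread between libraries, which may be technical.

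The thick ascending limb dilutes the urine and builds the salt gradient of the renal medulla. Its cells take up sodium, potassium and chloride from the lumen through the cotransporter NKCC2 (Slc12a1), and potassium returns to the lumen through the channel ROMK (Kcnj1). The lumen is positive to the blood side as a result, and this voltage drives calcium, magnesium and sodium through the junctions between cells, where claudins set which ions pass. The segment also makes uromodulin (Umod), a protein released into the urine, and the precursor of epidermal growth factor (Egf). Cldn10 is also transcribed in the proximal tubule, Egf also in the distal convoluted tubule and Kcnj1 also further down the nephron, so these are less strictly tied to the segment than Slc12a1 and Umod.

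Start sites from RefSeq (GRCm38.p6) were matched to 8 of the 9 genes and gave 11 promoter windows, each running from 250 bases before the start to 50 after it. Ppp1r1a had no entry. Egf, Cldn10 and Cldn19 each had 2 windows, and a 3' count adds the transcripts of both starts where they share an end. Printed are the windows of Umod and Slc12a1, the upstream one of the 2 of Egf, and both of Cldn10, since these genes stand for the 2 sets described further on. Capitals mark the HNF1 core GTTAAT, part of the site bound by hepatocyte nuclear factor 1, and the D-box TTATGNAA of clock output factors, on either strand.
Umod, minus strand, chr7:119479213-119479512: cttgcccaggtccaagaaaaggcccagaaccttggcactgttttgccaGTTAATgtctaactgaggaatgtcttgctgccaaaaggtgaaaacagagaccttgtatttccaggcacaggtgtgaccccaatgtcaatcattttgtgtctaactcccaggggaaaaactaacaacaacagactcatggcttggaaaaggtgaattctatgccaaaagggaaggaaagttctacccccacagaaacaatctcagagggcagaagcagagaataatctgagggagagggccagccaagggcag
Slc12a1, plus strand, chr2:125152350-125152649: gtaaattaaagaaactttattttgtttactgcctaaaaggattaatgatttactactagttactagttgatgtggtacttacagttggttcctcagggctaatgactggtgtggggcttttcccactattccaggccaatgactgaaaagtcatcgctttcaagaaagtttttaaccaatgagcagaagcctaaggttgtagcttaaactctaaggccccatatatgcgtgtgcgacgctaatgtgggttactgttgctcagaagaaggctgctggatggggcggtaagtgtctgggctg
Egf, minus strand, chr3:129755273-129755572: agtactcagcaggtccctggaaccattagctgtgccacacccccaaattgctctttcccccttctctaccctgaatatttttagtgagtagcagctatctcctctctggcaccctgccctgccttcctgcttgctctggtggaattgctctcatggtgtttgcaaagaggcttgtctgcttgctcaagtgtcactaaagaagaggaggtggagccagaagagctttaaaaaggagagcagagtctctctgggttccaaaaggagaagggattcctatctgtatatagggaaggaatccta
Cldn10, upstream start, plus strand, chr14:118787621-118787920: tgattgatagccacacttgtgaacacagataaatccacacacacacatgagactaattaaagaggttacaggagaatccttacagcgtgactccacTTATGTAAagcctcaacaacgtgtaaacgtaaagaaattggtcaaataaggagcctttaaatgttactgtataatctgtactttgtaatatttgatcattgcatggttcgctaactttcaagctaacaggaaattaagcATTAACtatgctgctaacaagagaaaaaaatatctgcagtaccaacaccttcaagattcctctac
Cldn10, downstream start, plus strand, chr14:118854700-118854999: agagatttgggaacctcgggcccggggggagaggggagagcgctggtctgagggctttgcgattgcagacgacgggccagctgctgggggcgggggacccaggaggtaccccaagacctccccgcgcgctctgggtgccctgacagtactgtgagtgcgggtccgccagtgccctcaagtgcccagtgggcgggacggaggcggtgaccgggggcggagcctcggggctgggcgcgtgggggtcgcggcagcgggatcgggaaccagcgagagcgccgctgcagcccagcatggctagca

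The HNF1 core stood in 2 of the 11 windows, and 7.1% of the 32851 promoters of the table hold it. In Umod it began at position -202 from the start on the coding strand, and in the upstream window of Cldn10 at position -15 on the other strand. The D-box stood at position -154 of that same Cldn10 window (1 of 11 windows, against 3.38% of all promoters). The downstream window of Cldn10 held neither of them. Which Cldn10 start serves the thick ascending limb was not tested, so neither match is tied to transcripts of this segment. The E-box CACGTG (7.15% of all promoters) and the element TCAAGGTCA of estrogen-related receptors (0.423%) were in none of the 11. The capitals do not overlap each other. Such matches describe letters and are not evidence of binding.

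Totals ran from 8223008 to 10914515 counts per library, and 14665 genes were tested. Summed over the 9 genes, the level was 2142 to 2798 CPM in Young, 2428 to 2833 CPM in Old, 2442 to 3394 CPM in Old+YM and 2716 to 3233 CPM in Old+PM, where CPM is the usual depth-scaled count (on TMM-adjusted library sizes). Umod and Slc12a1, the defining markers, had at least 7047 and 3330 counts in every library, so the segment was well represented in each. Old 5 stood apart with 544 CPM of 8 macrophage markers, against 102 to 194 CPM in the other Old libraries. A clock score was formed per library as the mean z value of genes such as Dbp and Per3 minus that of genes such as Arntl and Npas2, which peak at the opposite time of day. It ran from -2.83 to -0.88 in Young, and in the aged libraries from 0.92 to 2.30 except Old 4 (-1.87), Old+YM 3 (-0.34) and Old+PM 3 (-0.16). In whole kidney RNA, fewer cells of the segment and less RNA per cell cannot be told apart.

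None of the 9 genes passed edgeR's test at an adjusted p of 0.05 in any of the 4 comparisons. In Old against Young 0 of 9 were called, where 13.6% of all tested genes were, and 0 of 9 had an unadjusted p under 0.05, against 28.1% of all tested genes. Old and Young overlapped for all 9, where they did not overlap for 9.19% of all tested genes. The same count was 0 of 9 with DESeq2 and with limma-voom. Among mice given YM, 0 of 9 passed against Old (0.0205% of all genes called), and 1 of 9 had an unadjusted p under 0.05 (9.48% of all genes). For 1 of 9 the libraries did not overlap those of Old, as for 9.1% of all genes. Among mice given PM, 0 of 9 passed against Old (0% of all genes called), and 0 of 9 had an unadjusted p under 0.05 (6.16% of all genes). For 2 of 9 the libraries did not overlap those of Old (4.02% of all genes). Between the formulas 0 of 9 passed (0% of all genes called), 1 of 9 had an unadjusted p under 0.05 (12.8% of all genes), and 1 of 9 did not overlap (23.8% of all genes). DESeq2 and limma-voom also called 0 of 9 in each of these. Their median log2 fold change was 0.01 in Old against Young, where the median of all tested genes was 0.02. It was 0.15 in Old+YM against Old (all genes -0.03), 0.23 in Old+PM against Old (all genes -0.02) and 0.11 in Old+PM against Old+YM (all genes 0.01). The 2 comparisons with Old share the same 5 Old libraries.

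**Figure D1:**
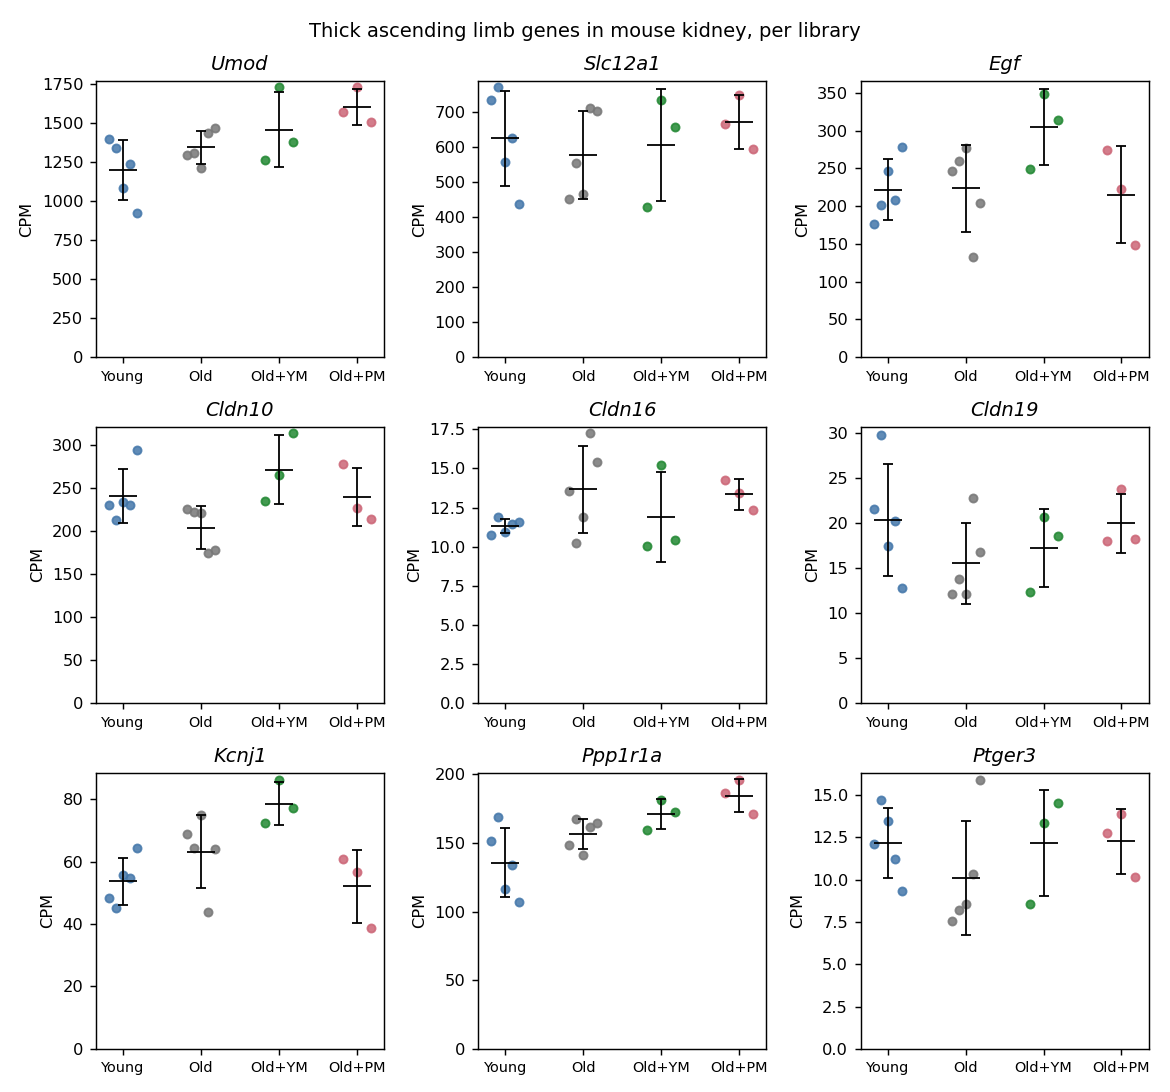
Level of each of the 9 genes in CPM (vertical axis, from 0) in every library of the 4 groups (horizontal axis). Points are libraries, and bars show the mean and SD. Most groups overlap. In the comparisons tested, Umod in Old+PM (1508 to 1729 CPM) lies above Old (1215 to 1469.7 CPM). So does Ppp1r1a in Old+PM (171 to 196 CPM, Old 142 to 167 CPM), a separation that 1.92% of all tested genes show. Cldn10 in Old+YM (235 to 314 CPM) lies above Old (175 to 225 CPM), as do 5.15% of all tested genes. Kcnj1 in Old+PM (38.7 to 60.8 CPM) lies below Old+YM (72.3 to 86.1 CPM), as do 11.9% of all tested genes.

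Among the salt transporters, Slc12a1 (chromosome 2, 125152505 to 125230002, plus strand) encodes the cotransporter that loop diuretics block. Its CPM values were 734, 772, 557, 626 and 438 in Young, 453, 556, 467, 713 and 705 in Old, 428, 736 and 658 in Old+YM, and 668, 751 and 596 in Old+PM. The groups overlapped throughout, and the low values sat in Young 5, in Old 1 and 3 and in Old+YM 1. The mean was 625.4 ± 135 CPM (SD, n = 5) in Young and 579 ± 125 CPM (n = 5) in Old, a log2 difference of -0.11 (SE 0.17, edgeR adjusted p = 0.734). Leaving out 1 library moved it from -0.20 (without Old 5) to -0.011 (without Young 2), and Young 1, Young 5, Old 1, Old 3 and Old 4 each moved it by over 1.5 times. In Old+YM it was 608 ± 160.0 CPM (n = 3) and in Old+PM 672 ± 77.5 CPM (n = 3). The order of the means was Old, Old+YM, Young, Old+PM, and each step was smaller than the SD of either neighbour.

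Kcnj1 (chromosome 9, 32372493 to 32399197, plus strand) encodes ROMK, the channel that returns potassium to the lumen. Its CPM values were 48.2, 45.2, 55.6, 54.7 and 64.4 in Young, 68.8, 64.3, 74.8, 43.8 and 63.9 in Old, 72.3, 86.1 and 77.2 in Old+YM, and 60.8, 56.7 and 38.7 in Old+PM. All 3 Old+PM libraries were below all 3 Old+YM libraries. Old+PM lay wholly below Old+YM for 11.9% of all tested genes. The means were 78.6 ± 6.98 CPM (n = 3) in Old+YM and 52.1 ± 11.7 CPM (n = 3) in Old+PM, a log2 difference of -0.59 (SE 0.18, 95% interval -0.97 to -0.21), with an unadjusted p of 0.00419 and an edgeR adjusted p of 0.26, so it failed the correction. Against Old (63.1 ± 11.7 CPM, n = 5), the log2 fold change was 0.32 in Old+YM (SE 0.16, edgeR adjusted p = 0.559) and -0.28 in Old+PM (SE 0.17, edgeR adjusted p = 0.843), the latter -0.098 without Old+PM 3.

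For age, Kcnj1 passed the test in 1 alternative. In Old against Young (53.6 ± 7.43 CPM, n = 5) the log2 fold change was 0.24 (SE 0.14, edgeR adjusted p = 0.296). When the 3 aged libraries with negative clock scores were left out, a choice made after seeing the data, it was 0.34 (SE 0.11, edgeR adjusted p = 0.0337). Old 4, the lowest Old library for Kcnj1, was among those left out, while the Young libraries, whose scores were all negative, were kept. Kcnj1 itself went with the clock score within groups (r = 0.75), so leaving out libraries by that score was not independent of its level. The fit without these 3 libraries called 2899 of 15034 tested genes, against 1995 of 14665 in the main fit. Over all alternatives the adjusted p ran from 0.0337 to 0.544, and the log2 fold change was -0.29 with the clock score as a covariate.

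Of the secreted products, Umod (chromosome 7, 119462711 to 119479282, minus strand) had CPM values of 1395, 1342, 1084, 1237 and 926 in Young, 1294, 1306, 1215, 1436 and 1469.7 in Old, 1266, 1728 and 1382 in Old+YM, and 1574, 1729 and 1508 in Old+PM. All 3 Old+PM libraries lay above all 5 Old libraries, as was so for 1.92% of all tested genes, while Old+YM overlapped Old. The mean was 1344 ± 106 CPM (n = 5) for Old and 1603 ± 114 CPM (n = 3) in Old+PM, and the log2 fold change was 0.25 (SE 0.13, 95% interval -0.02 to 0.53, edgeR adjusted p = 0.831). In Old+YM the mean was 1459 ± 240.3 CPM (n = 3) and the log2 fold change over Old 0.12 (SE 0.13, edgeR adjusted p = 0.806). Young had 1197 ± 192 CPM (n = 5), so the order of the means from low to high was Young, Old, Old+YM, Old+PM, with Old 0.17 above Young on the log2 scale (SE 0.12, edgeR adjusted p = 0.37). None of these steps passed the test. The 3' end part of Umod overlaps the antisense gene Gm44588 on the plus strand. Whether the counting used strand is not stated in the sources used here, so reads of the pair may not be told apart.

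Egf (chromosome 3, 129677565 to 129755316, minus strand) had CPM values of 177, 202, 246, 208 and 278 in Young, 247, 259.7, 276, 133 and 204 in Old, 249.7, 349 and 314 in Old+YM, and 275, 223 and 148 in Old+PM. Every group overlapped Old. The lowest libraries of the series were Old 4 and Old+PM 3, which were also the lowest for Kcnj1. The means were 222 ± 39.9 CPM (n = 5) in Young and 224 ± 57.6 CPM (n = 5) in Old, a log2 difference of 0.01 (SE 0.19, 95% interval -0.40 to 0.42). In Old+YM the mean was 304 ± 50.3 CPM (n = 3), 0.44 above Old on the log2 scale (SE 0.22, edgeR adjusted p = 0.55), and in Old+PM it was 215 ± 63.7 CPM (n = 3), a log2 difference from Old of -0.06 (SE 0.22, edgeR adjusted p = 0.977). Old+PM stood at -0.50 against Old+YM (SE 0.25, 95% interval -1.03 to 0.03, edgeR adjusted p = 0.415), and at -0.30 without Old+PM 3.

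The 3 claudins take part in pores that differ in the ions they pass. Cldn10 (chromosome 14, 118787908 to 118875489, plus strand) makes a sodium-selective pore in this segment, and another of its isoforms is found in the proximal tubule. Its CPM values were 229.9, 213, 234, 231 and 295 in Young, 225, 222, 221, 175 and 178 in Old, 235, 265 and 314 in Old+YM, and 279, 226 and 214 in Old+PM. All 3 Old+YM libraries lay above all 5 Old libraries, a separation that 5.15% of all tested genes showed in that direction. The means were 272 ± 39.9 CPM (n = 3) in Old+YM and 204 ± 25.5 CPM (n = 5) in Old, and the log2 fold change was 0.41 (SE 0.13, 95% interval 0.13 to 0.69), with an unadjusted p of 0.00579 and an edgeR adjusted p of 0.324. Over all alternatives the adjusted p ran from 0.0833 to 0.914. Old was also below Young (240.4 ± 31.5 CPM, n = 5) by -0.24 on the log2 scale (SE 0.12, edgeR adjusted p = 0.195), and Old+PM (239.8 ± 34.2 CPM, n = 3) was 0.23 above Old (SE 0.13, edgeR adjusted p = 0.843). Each value leaned on 1 library: without Young 5, the highest Young library, the first was -0.12, and without Old+PM 1 the second was 0.11. The proximal tubule markers, which mark the other source of Cldn10 transcripts, summed to 10130 to 13918 CPM in Old and 10650 to 11563 CPM in Old+YM, and their part in this value was not tested.

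Cldn16 (chromosome 16, 26463135 to 26482765, plus strand) and Cldn19 (chromosome 4, 119255414 to 119262438, plus strand) together make the pore for calcium and magnesium, and loss of either causes magnesium wasting. They were counted less deeply, with 88 to 177 counts of Cldn16 and 97 to 293 counts of Cldn19 per library. Cldn16 was 11.3 ± 0.469 CPM (n = 5) in Young, with a narrow range of 10.7 to 11.9 CPM, and 13.7 ± 2.77 CPM (n = 5) in Old, with a range of 10.2 to 17.2 CPM that enclosed the Young one. Old+YM had 11.9 ± 2.88 CPM (n = 3) and Old+PM 13.3 ± 0.977 CPM (n = 3). Cldn19 had 20.4 ± 6.25 CPM (n = 5) in Young and 15.5 ± 4.49 CPM (n = 5) in Old. Its mean was 17.2 ± 4.36 CPM (n = 3) in Old+YM, and the 3 Old+PM libraries held 17.99, 23.8 and 18.2 CPM. In Old against Young the log2 difference was 0.27 (SE 0.16, edgeR adjusted p = 0.283) for Cldn16 and -0.40 (SE 0.22, 95% interval -0.85 to 0.06, edgeR adjusted p = 0.241) for Cldn19. Old 1 to 3 held 12.1 to 13.8 CPM of Cldn19, and Old 4 held 22.8 CPM. Old 4 also had the highest Cldn16 of the series. The Cldn19 difference was -0.56 without Old 4 and -0.20 without Young 2.

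Ppp1r1a and Ptger3 serve signalling. Ppp1r1a (chromosome 15, 103530279 to 103538003, minus strand) encodes inhibitor 1 of protein phosphatase 1, through which cyclic AMP signals are prolonged. Its CPM values were 151, 169, 116, 134 and 107 in Young, 148, 167, 142, 162 and 164 in Old, 159, 181 and 173 in Old+YM, and 187, 196 and 171 in Old+PM. All 3 Old+PM libraries were above all 5 Old libraries. Umod and Ppp1r1a were the 2 of 9 members with that separation, against 1.92% of all tested genes. These 2 genes varied together within groups (r = 0.86), so the 2 separations are not separate observations. The means were 157 ± 11.1 CPM (n = 5) for Old and 184 ± 12.3 CPM (n = 3) in Old+PM, and the log2 fold change was 0.24 (SE 0.13, edgeR adjusted p = 0.842). The order of the means was Young (136 ± 25.1 CPM, n = 5), Old, Old+YM (171 ± 11.1 CPM, n = 3), Old+PM, the same order as for Umod.

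Ptger3 (chromosome 3, 157566892 to 157645888, plus strand) encodes the prostaglandin E2 receptor EP3, which restrains hormone-driven salt uptake. It had 71 to 159 counts per library and 12.2 ± 2.07 CPM (n = 5) in Young, 10.1 ± 3.38 CPM (n = 5) in Old, 12.2 ± 3.15 CPM (n = 3) in Old+YM and 12.3 ± 1.92 CPM (n = 3) in Old+PM. Old 5 held 15.9 CPM and the other 4 Old libraries 7.57 to 10.3 CPM. Old against Young was -0.27 on the log2 scale (SE 0.21, edgeR adjusted p = 0.432), and -0.49 without Old 5. Its treated groups differed by 0.01 on the log2 scale (SE 0.27, 95% interval -0.54 to 0.57).

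**Figure D2:**
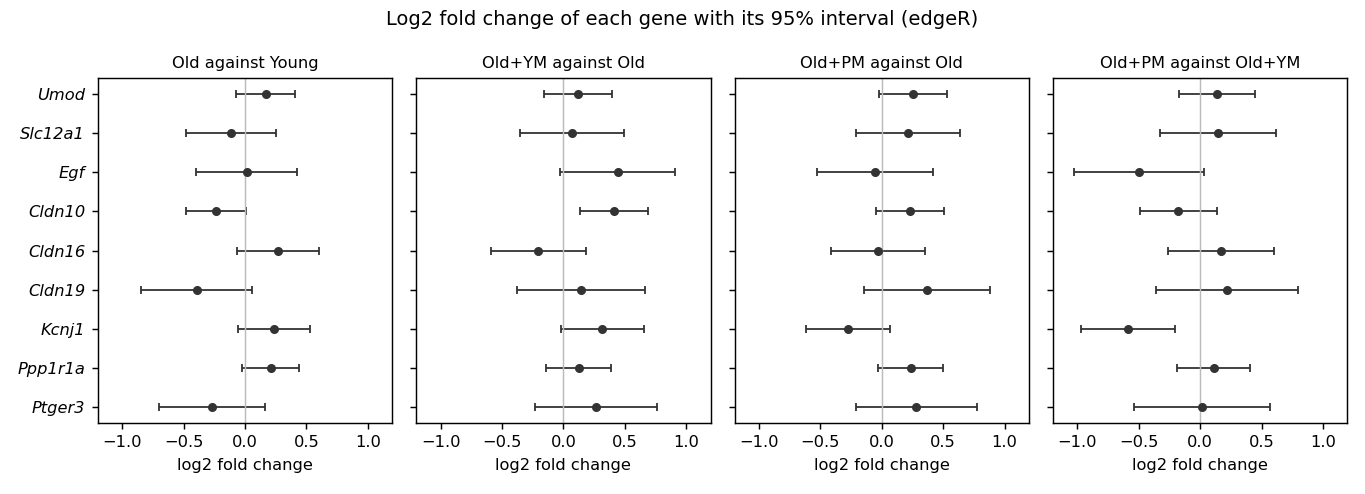
Log2 fold change (horizontal axis) of each gene (vertical axis) in the 4 comparisons, as points with 95% intervals from the edgeR fit, unadjusted for the number of genes. The interval lies clear of 0 for Cldn10 in Old+YM against Old (0.13 to 0.69) and for Kcnj1 in Old+PM against Old+YM (-0.97 to -0.21), and both had adjusted p-values above 0.05.

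Across the 36 intervals the widest change they allowed was that of Egf in Old+PM against Old+YM, at -1.03. A log2 change of 1 in either direction was outside the 95% interval of every other member and comparison. Differences well below that size were within the errors for most genes. For the 2 formulas against each other, the interval was -0.17 to 0.45 for Umod, -0.33 to 0.62 for Slc12a1, -0.49 to 0.13 for Cldn10 and -0.19 to 0.41 for Ppp1r1a, which leaves differences of those sizes possible.

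Within groups, the genes other than Cldn16 varied in 2 sets. The level of each gene was taken as log2 CPM minus its group mean, and the 36 pairs were correlated over the 16 libraries, with Pearson's r, Spearman's rho and a permutation test that shuffled libraries within groups. Of the 36 pairs, 12 had an adjusted p under 0.05 by Pearson's r, and all 12 were positive. Of these, 9 joined Umod, Slc12a1, Cldn19, Ppp1r1a and Ptger3 (10 pairs, r from 0.53 to 0.94), and 3 joined Egf, Kcnj1 and Cldn10 (3 pairs, r from 0.70 to 0.94). The 15 pairs across the sets were all negative, from -0.54 to -0.06, and none passed. The 8 pairs with Cldn16 did not pass either. By Spearman's rho, 8 pairs of the first set and 3 of the second passed. Umod with Ptger3 then missed the threshold (rho = 0.65, permutation test, adjusted p = 0.066). The sets were drawn after seeing the values, and all points share library, depth and scaling.

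**Figure D3:**
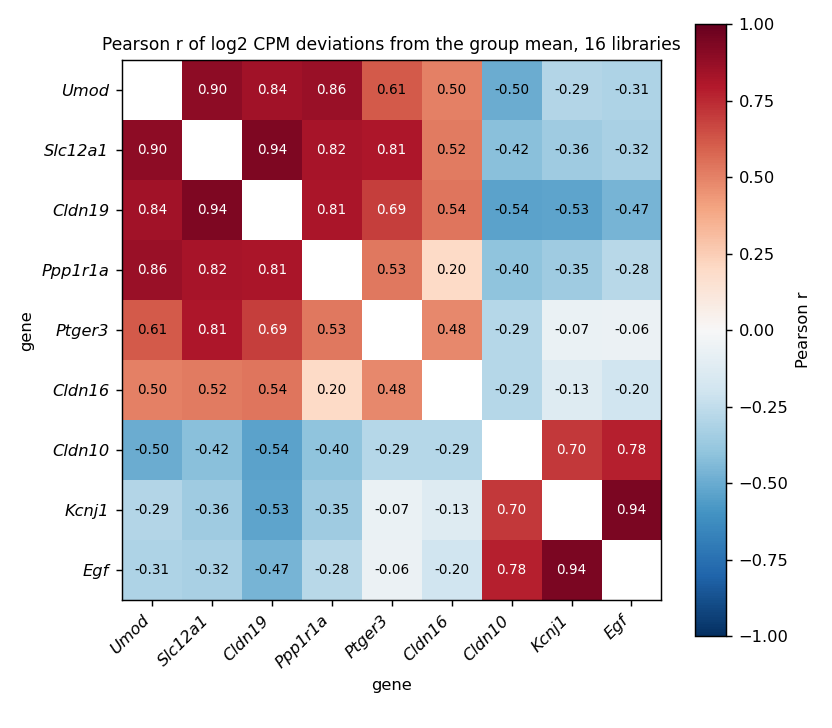
Pearson r between genes (both axes) of log2 CPM deviations from the group mean over 16 libraries, as colour and number. The block from Umod to Ptger3 and the block of Cldn10, Kcnj1 and Egf are positive, and the values between these blocks are negative.

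Slc12a1 and Cldn19 gave the closest pair of the first set (r = 0.94, rho = 0.96, permutation p = 2e-05, adjusted over 36 pairs p = 0.00072), and r was 0.90 without the 2 libraries farthest from the median, Young 5 and Old+YM 1. For Umod and Slc12a1 r was 0.90 and rho 0.89 (permutation p = 5e-05, adjusted p = 0.00084), and r was 0.87 without Young 5 and Old+YM 2. In the other set, Egf and Kcnj1 had r = 0.94 and rho = 0.92 (permutation p = 7e-05, adjusted p = 0.00084), and r = 0.86 without Old 4 and Old+PM 3. Between the sets, Slc12a1 and Egf had r = -0.32 and rho = -0.39 (permutation p = 0.243, adjusted p = 0.313), and r = -0.41 without Young 5 and Old+YM 1. The 2 secreted products of the segment, Umod and Egf, showed no correlation past the threshold (r = -0.31, rho = -0.27, permutation p = 0.199, adjusted p = 0.276, and r = -0.32 without Young 5 and Old+YM 2).

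The genes also differed in how many others followed them, a difference that was not tested. Among 10302 other genes with a mean of at least 5 CPM, 1261 (12.2%) had r of at least 0.7 with Egf and 1369 (13.3%) with Kcnj1, measured in the same way. For Cldn10 it was 502 genes (4.87%). For Umod this was 144 genes (1.4%), for Slc12a1 147 (1.43%), for Cldn19 201 (1.95%), for Ptger3 102 (0.99%), for Ppp1r1a 92 (0.893%) and for Cldn16 57 (0.553%). The genes most like Slc12a1 over the 16 libraries were Map2 (r = 0.95), its fellow member Cldn19 (0.94) and Kcnk1 (0.93), which encodes a potassium channel. Those most like Umod were Slc12a1 (0.90), Tmem97 (0.90) and Soat1 (0.89). Egf was followed most closely by Lrrc8b (0.97), Kti12 (0.97) and Jagn1 (0.97), and Cldn10 by Lrrc8d (0.92), Ttyh2 (0.91) and Mtx2 (0.90). Lrrc8b and Lrrc8d encode subunits of a volume-regulated anion channel. At r of at least 0.9 there were 126 genes (1.22%) with Egf and 4 (0.0388%) with Cldn10. A shared theme among the followers was not tested.

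Within groups, 2 scores were compared with the genes: the clock score, from 11 tested genes, and a medulla score, the mean z value of 10 genes of the inner kidney such as Aqp2 and Slc14a2. The medulla list shares 1 gene with the list of other genes of the segment used below. Each was correlated with each gene, 18 relations in all, after group means were removed. The clock score went with Kcnj1 (r = 0.75, rho = 0.70, permutation p = 0.0118, adjusted p = 0.0354) and Egf (r = 0.73, rho = 0.64, permutation p = 0.0145, adjusted p = 0.0372). Without Old 4 and Old+YM 3 these r were 0.63 and 0.63. Cldn10, which varied with this pair, did not pass with the clock score (r = 0.37, rho = 0.30, permutation p = 0.213, adjusted p = 0.349) or with the medulla score (r = -0.073, rho = -0.11). The medulla score went with Ptger3 (r = 0.75, rho = 0.77, permutation p = 0.00127, adjusted p = 0.0198), Cldn16 (r = 0.73, rho = 0.76, permutation p = 0.00393, adjusted p = 0.0198) and Slc12a1 (r = 0.71, rho = 0.75, permutation p = 0.00254, adjusted p = 0.0198). It also went with Umod (r = 0.64, rho = 0.68, adjusted p = 0.0198), Cldn19 (r = 0.62, rho = 0.64, adjusted p = 0.0277) and Ppp1r1a (r = 0.44, rho = 0.46, permutation p = 0.0202, adjusted p = 0.0454), but not past the threshold with Egf (r = 0.17, rho = 0.09) or Kcnj1 (r = 0.19, rho = 0.09). The p-values given are those of r. By rho, Ppp1r1a did not pass with the medulla score (permutation p = 0.055, adjusted p = 0.124). Without Old+YM 1 and Old+PM 3, r was 0.69 for Ptger3, 0.75 for Cldn16, 0.67 for Slc12a1, 0.62 for Umod, 0.61 for Cldn19 and 0.38 for Ppp1r1a. What part clock phase or the share of medulla in each piece of tissue had in the levels was not tested.

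**Figure D4:**
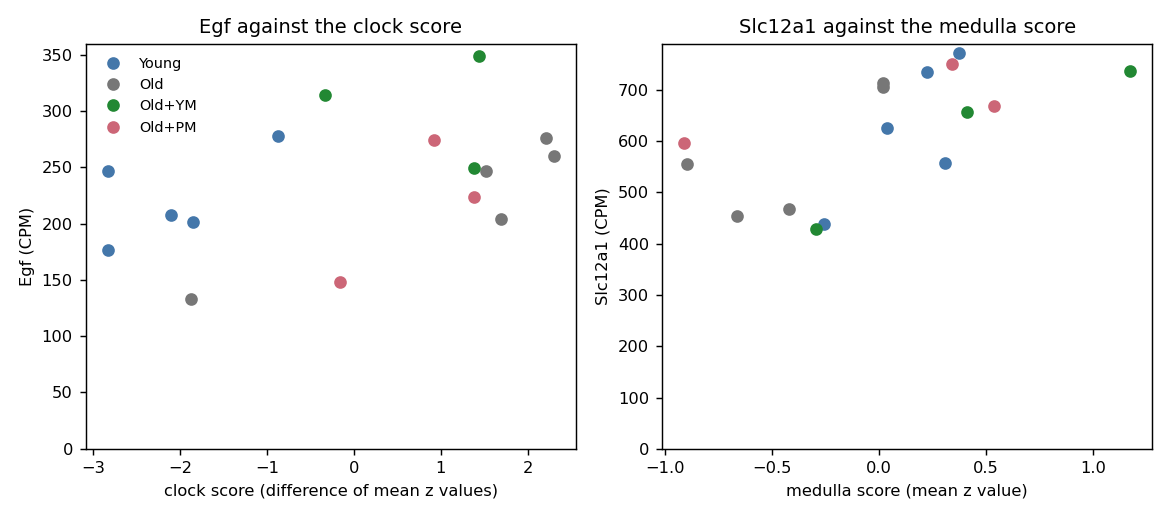
Left, Egf (CPM, vertical) against the clock score (horizontal). Right, Slc12a1 (CPM) against the medulla score. Both vertical axes start at 0, and points are the 16 libraries, coloured by group. On the left, the lowest Old point in both measures is Old 4 (133 CPM, score -1.87), and on the right the 2 highest Old points are Old 4 and Old 5 (713 and 705 CPM, scores 0.02 and 0.02).

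The scores differed between groups too, and fits that held them moved some values. The medulla score ran from -0.25 to 0.37 in Young, -0.90 to 0.02 in Old, -0.30 to 1.17 in Old+YM and -0.91 to 0.54 in Old+PM. With it as a covariate, the log2 difference of Slc12a1 was 0.11 in Old against Young (SE 0.15, edgeR adjusted p = 0.676) and -0.30 in Old+YM against Old (SE 0.18, edgeR adjusted p = 0.773), both of the other sign than without it. Umod in Old against Young was then 0.29 (SE 0.11, edgeR adjusted p = 0.101). With the clock score as a covariate, Egf in Old against Young was -0.71 (SE 0.23, unadjusted p = 0.00549, edgeR adjusted p = 0.0852), against 0.01 without it. Kcnj1 was -0.29 (SE 0.17, edgeR adjusted p = 0.367). Old 4 was the only Old library inside the Young range of the clock score, so age and clock phase cannot be told apart in the other Old libraries.

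As a measure free of scaling between libraries, each gene was set against Umod within its library, a choice made after values were seen. Slc12a1 had 47.3% to 57.6% as many counts as Umod in Young, 35.0% to 49.7% in Old, 33.8% to 47.6% in Old+YM and 39.5% to 43.4% in Old+PM. The log2 ratio was -0.95 ± 0.10 (n = 5) in Young and -1.24 ± 0.21 (n = 5) in Old (exact permutation test, two-sided, p = 0.0238, adjusted over 8 ratios p = 0.0847, where the smallest p possible is 0.00794). Cldn19 had a log2 ratio to Umod 0.56 lower in Old (difference -0.56, exact permutation p = 0.0238, adjusted p = 0.0847) and Ptger3 one 0.48 lower (difference -0.48, exact permutation p = 0.0317, adjusted p = 0.0847). None of the 8 ratios passed after correction in Old against Young, and the ranges overlapped in all 8. All share Umod as denominator, whose own log2 difference was 0.17 in Old against Young. Slc12a1, Cldn19 and Ptger3 also varied together within groups (r from 0.69 to 0.94), so their 3 ratios are not separate observations. For Ppp1r1a the ratio differed by 0.05 (exact permutation p = 0.421, adjusted p = 0.673).

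Other genes of the segment were followed in a list of 44, of which 41 were tested and Cldn14, Calcr and Ptgs2 were too low. In Old against Young 6 of 41 passed (14.6%, where 13.6% of all tested genes did), 2 higher and 4 lower, with a median log2 fold change of 0.06 (all genes 0.02). In the 3 comparisons of treated mice 0 of 41 passed with edgeR. An unadjusted p under 0.05 was seen for 4 of 41 with YM, where 9.48% of all tested genes had one. It was seen for 7 of 41 with PM (6.16% of all genes) and for 5 of 41 between the formulas (12.8%). DESeq2 and limma-voom called 0 of these genes as well in those 3 comparisons.

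Of 7 tested genes of the paracellular route, Pth1r, the parathyroid hormone receptor, fell from 528 ± 51.4 CPM (n = 5) to 414 ± 30.8 CPM (n = 5) (log2 -0.35, SE 0.10, edgeR adjusted p = 0.0208). Of 6 genes of hormone signalling and uromodulin cleavage, Pde4d, a phosphodiesterase that breaks down cyclic AMP, rose from 89.9 ± 9.79 CPM to 158 ± 26.7 CPM (log2 0.81, SE 0.12, edgeR adjusted p = 0.000226), with 78.3 to 101 CPM in Young and 124 to 190.2 CPM in Old. Hpn, the protease hepsin that releases uromodulin from the cell surface, fell from 177 ± 12.4 CPM to 137 ± 24.6 CPM (log2 -0.37, SE 0.11, edgeR adjusted p = 0.0318). None of 3 macula densa genes passed. Of 8 transcription factors Irx1, a homeobox factor of the nephron, fell from 38.4 ± 7.42 CPM to 25.1 ± 3.18 CPM (log2 -0.61, SE 0.19, edgeR adjusted p = 0.0378). Pth1r and Hpn are also transcribed in the proximal tubule, whose 10 markers summed to 13091 to 15475 CPM in Young and 10130 to 13918 CPM in Old. The part of that segment in these values was not tested.

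The call of Pde4d was kept without each of the 16 libraries in turn and missed the threshold with the clock score as a covariate (edgeR adjusted p = 0.0506). Hpn, Irx1 and Pth1r were each lost without at least 1 of Young 1 to 5 or Old 1 to 5. With the medulla score as a covariate, Irx1 was -0.32 on the log2 scale (edgeR adjusted p = 0.204). Irx1 was also lost with the replicate block (edgeR adjusted p = 0.0737), limma-voom (0.0511) and upper quartile scaling (0.0596). Hpn was lost with upper quartile scaling (edgeR adjusted p = 0.0599) and with the groups compared only (0.0799). Over the fits without 1 library the number called ran from 1 (without Young 4) to 9 (without Old 4), and it was 2 without Young 2 or Young 3 and 3 without Young 1. Over all tested genes, 1236 of 14628 were called without Young 4 and 2655 of 14601 without Old 4. In the fit that held the clock score, Pth1r alone of the 41 passed (edgeR adjusted p = 0.0435), where 538 of 14665 genes did. Without the 3 aged libraries with a negative clock score 12 passed, where 2899 of 15034 genes did.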

How the data were processed

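Counts per gene symbol were deposited by the authors for 16 libraries of 3' end RNA-seq. Bowtie2, bedtools and the build mm10 are named in the submitters' processing notes, and no source used here states versions, annotation or strand setting. No values were normalized by the authors in these files. Groups were taken from the sample labels.

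The 4 comparisons were fitted with edgeR 4.0.16 (R 4.3.3) on all 16 libraries: filterByExpr with a minimum count of 10, TMM scaling, a robust quasi-likelihood fit on group alone, and Benjamini-Hochberg adjustment over 14665 genes with a threshold of 0.05. The scores and correlations used log2 CPM with a prior count of 2, and CPM values used TMM-scaled library sizes. Log2 fold changes were those of the fit, and log2 ratios to Umod came from counts with no prior count. Standard errors came from the F statistics, and 95% intervals from the degrees of freedom of the fit. Correlations used 100000 permutations within groups, and ratios to Umod exact permutation tests. Alternatives used DESeq2 1.42.0, limma 3.58.1, other scalings, no filter, the groups compared only, a replicate block, either score as a covariate and each library left out.

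Replicate numbers were not treated as pairs: same-numbered libraries had correlations of deviations from -0.086 to 0.158, and the labels tie no number to a mouse or day. All 9 genes are named. Of the other genes of the segment, those that passed are named, at most 6 a comparison by smallest p, except that some are not reported here, and up to 10 genes most like Slc12a1, Umod, Egf and Cldn10. The members and lists were chosen with earlier results of these data known. Gene positions are from GENCODE M21 (GRCm38) and promoters from RefSeq (GRCm38.p6). At the lowest total, 1 CPM was about 8 counts.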

Additional observations from a re-analysis of the deposited data

Results flagged for a closer look

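Cldn10 in Young 5 was 295 CPM, against 213 to 234 CPM in the other 4 Young libraries. Its gap to the nearest of them was 0.744 of the range of the group. Of 18 groups of 5 examined in this way it was the 1 that stood out, and chance gives about 1 in 20.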

How the results depend on the processing

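Over 26 alternatives, 220 of 234 log2 fold changes of the 9 genes kept direction and side of the threshold in Old against Young, 226 in Old+YM against Old, 224 in Old+PM against Old and 229 in Old+PM against Old+YM. The 1 call was Kcnj1 in Old against Young without the 3 aged libraries with a negative clock score (1 of 9 genes, an alternative added after seeing the data). That fit called 2899 of 15034 tested genes. For the signs that turned, the cause was not tested. With the clock score, Old against Young was 0.20 for Slc12a1, -0.71 for Egf, 0.071 for Cldn19 and -0.29 for Kcnj1, and Old+PM against Old was 0.061 for Egf. With the medulla score, Slc12a1 was 0.11 in Old against Young, and Old+YM against Old was -0.078 for Umod, -0.30 for Slc12a1, -0.24 for Cldn19 and -0.14 for Ptger3. Egf in Old against Young was -0.014 with limma-voom and -0.020 with the replicate block, and Cldn16 in Old+PM against Old was 0.078 with the block. Without the 3 libraries, Old+PM against Old was 0.012 for Egf and 0.12 for Cldn16, and Cldn10 was 0.012 in Old+PM against Old+YM. Leaving out each library, Egf ran from -0.082 to 0.16 in Old against Young. In Old+YM against Old, Umod ran from -0.022 to 0.23, Slc12a1 from -0.092 to 0.28 and Cldn19 from -0.0056 to 0.36. In Old+PM against Old, Cldn16 ran from -0.10 to 0.086 and Egf from -0.27 to 0.16. In Old+PM against Old+YM, Slc12a1 ran from -0.064 to 0.31 and Ptger3 from -0.20 to 0.16.

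Over all genes, edgeR called 1995 in Old against Young (949 higher, 1046 lower), 1104 higher and 758 lower with upper quartile scaling, 538 with the clock score, 2104 with the replicate block, and 1208 (without Old 5) to 2655 (without Old 4) without 1 library. Old+YM against Old gave 3, but 48 with DESeq2, 6 with no filter, 20 with the groups compared only, 6 with the replicate block, 90 with the clock score, 0 with the medulla score, 1 without the 3 libraries and 0 to 39 without 1 library (39 without Young 5). Old+PM against Old+YM gave 0, but 59 with DESeq2, 4 with limma-voom, 8 with no filter, 13 with the groups compared only, 1 with the block, 4 with the clock score, 1 without the 3 libraries and 0 to 32 without 1 library (32 without Young 5). Old+PM against Old gave 0 to 0 without 1 library. Cldn16, Cldn19 and Ptger3, with as few as 88, 97 and 71 counts, had the least depth.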
